A study of Mus musculus with 6 samples.

Results

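The Sprouty, SPRED and PEA3 genes were followed in CT26 cells, a colon carcinoma line of BALB/c mice, with and without a hairpin RNA that targets Sep15, a 15 kDa selenoprotein. The genes were chosen by name: Spry1, Spry2, Spry4, Spred1, Spred2, Spred3, Etv1, Etv4 and Etv5, with every probe set that carries 1 of these symbols in the array annotation. Of these 9 genes, 8 had probe sets of their own, 26 of the 45037 probe sets tested, and they are 8 of 18193 genes measured. Etv1 was listed with a further gene symbol on each of its 3 probe sets, so no value is given for it. The control group was 3 samples of CT26 cells that had received pU6-m3, the empty vector, and the shSep15 group 3 samples that had received pU6-m3 with the hairpin. All 6 samples share the line and the vector backbone. The labels name 1 hairpin. They give neither the clonality of the cells nor whether the 3 RNA samples of a group came from separate cultures, so p-values measure only the spread between these samples. The hairpin was built on 19 nucleotides of Sep15 cDNA, shown because it is the agent that separates the groups.
Hairpin target, 5′ to 3′: acagaagagttccatttaa

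Extracellular-signal-regulated kinase (ERK) is the last kinase of the RAS, RAF and MEK cascade, which growth factor receptors switch on. Sprouty and SPRED proteins are membrane-associated brakes on that cascade, and their genes are commonly transcribed when it is active, which makes them feedback inhibitors. Sprouty proteins act on adaptor complexes and RAF, whereas SPRED proteins recruit the RAS inactivator neurofibromin. Etv1, Etv4 and Etv5 form the PEA3 subfamily of ETS transcription factors. Their genes are known targets of ERK signalling, which lifts their repression by Capicua, a repressor that binds TGAATGAA-type octamers.

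The 250 bases before the transcription starts of Etv5 and Spred3 are shown because these genes moved in opposite directions and have promoters in the RefSeq table (GRCm38.p6). Both strands were searched for GGAAGT (an ETS-type core), TGANTCA (AP-1), TGACGTCA (CRE), TGAATGAA (Capicua) and the CArG box of serum response factor, and matches stand in capitals. Sequences run 5′ to 3′ along the gene's strand.
Etv5, upstream start, chr16:22439571-22439820, minus strand: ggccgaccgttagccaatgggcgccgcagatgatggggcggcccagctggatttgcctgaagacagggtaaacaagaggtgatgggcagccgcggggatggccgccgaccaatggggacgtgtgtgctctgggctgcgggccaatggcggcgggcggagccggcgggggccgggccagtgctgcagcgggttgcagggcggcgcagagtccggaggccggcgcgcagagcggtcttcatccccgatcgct
Etv5, downstream start, chr16:22438369-22438618, minus strand: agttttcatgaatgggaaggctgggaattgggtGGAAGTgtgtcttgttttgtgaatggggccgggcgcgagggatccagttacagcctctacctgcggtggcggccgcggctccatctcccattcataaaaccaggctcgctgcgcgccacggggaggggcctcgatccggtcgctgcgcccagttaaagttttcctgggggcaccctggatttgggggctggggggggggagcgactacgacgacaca
Spred3, chr7:29168648-29168897, minus strand: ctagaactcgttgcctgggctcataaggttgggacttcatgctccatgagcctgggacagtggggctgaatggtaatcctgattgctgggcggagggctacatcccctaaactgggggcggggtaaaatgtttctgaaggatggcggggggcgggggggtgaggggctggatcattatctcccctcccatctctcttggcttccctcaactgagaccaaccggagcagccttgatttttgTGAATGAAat
The octamer TGAATGAA stood 10 to 3 bases before the Spred3 start, and 1.08% of the 32851 promoters of this length hold it. GGAAGT stood 217 to 212 bases before the downstream start of Etv5, and 19.7% of promoters hold it. The upstream start of Etv5 held none of the 5 motifs. Only exact letters were matched, so near variants of the octamer were not counted. Examples are tgaatggg in the downstream Etv5 window and tgaatggt in the Spred3 window. In all, 9 windows of 7 of the genes were searched, and the 1 other match was GGAAGT before Spred2, 33 to 28 bases from its start. TGANTCA, TGACGTCA and the CArG box were in none of the 9 windows, and 6.75%, 1.55% and 1.47% of promoters hold them. No match overlapped another. A match is a run of letters and not evidence of binding. The promoters of Spry4 and Etv4 were not used here.

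Values are log2 expression, so a difference of 1 is a doubling. The targeted gene, now named Selenof, read 12.41, 12.44 and 12.35 on the control arrays and 9.34, 9.59 and 9.50 on the shSep15 arrays, and 13.2% of the control signal remained. The log2 difference was −2.92 (SE 0.08) at a limma adjusted p of 2.43e-07. A further Selenof probe set was near background in both groups (4.71 and 4.70). Arrays correlated at 0.993 to 0.995 with their own group and at 0.977 to 0.979 with the other. On shSep15 3 the median of 5 interferon-stimulated genes lay 1.84 above the control mean, against −0.24 to 0.12 on the other 5 arrays, so calls that end without that array are given as such. Background was set at log2 6.02, from olfactory and vomeronasal receptor genes. Of 8 markers of colon epithelium, 4 were near background in both groups, among them Cdh1 (4.03 in control and 4.01 in shSep15 cells), Cdx2 and Vil1. The rest did not move together. Krt18 fell from a mean of 6.65 in control to 4.48 in shSep15 cells, and Krt20 from 8.28 to 6.15. Epcam (7.59 and 7.55) and Krt8 (6.07 and 6.06) changed little. The summed level of the 8 ran from 9.54 to 9.79 on control and from 8.78 to 9.08 on shSep15 arrays, and that of 5 fibroblast markers from 12.23 to 12.62 and from 12.88 to 13.32. The fibroblast markers did not move together: Col1a1, Col1a2 and Pdgfra rose (1.32, 0.64 and 1.35), Dcn fell by 1.72, and Lum was near background. The pan-leukocyte gene Ptprc was near background (4.14 and 4.23), although 5 leukocyte markers summed to 9.58 to 9.75 on control and 9.0 to 9.27 on shSep15 arrays, led by Cd14. The 4 endothelial markers summed to 7.43 to 7.44 and 7.37 to 7.51. The part of these shifts in the results below was not tested.

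The comparison asked how the feedback inhibitors and ETS factors of ERK signalling stood once Sep15 was knocked down, and they did not move as a block. Spry4 and Etv5 fell, Spred3 rose, and the other 5 genes did not pass the test. The 3 calls among 8 genes compare with 25.0% of all genes. Spry4 fell to 28.2% of its control level and Etv5 to 45.3%, each on every probe set of the gene, while Spred3 stood 2.30-fold higher on its only probe set. Called lower were 2 of 8 genes, against 12.8% of all genes, and called higher 1 of 8, against 12.2% (limma adjusted p under 0.05). All 8 lay above background on average over the arrays, and of all such genes 19.8% were called lower and 19.3% higher. Spred3 did so only through its shSep15 arrays (mean 7.18, against 5.98 on the control arrays). With counts this small, neither share sets these genes apart from the background. Their median log2 difference was −0.18, against 0.01 over all genes. A group's arrays did not overlap the other's in 3 genes on the lower side (18.7% of all genes) and 2 on the higher side (19.3%).

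**Figure D1:**
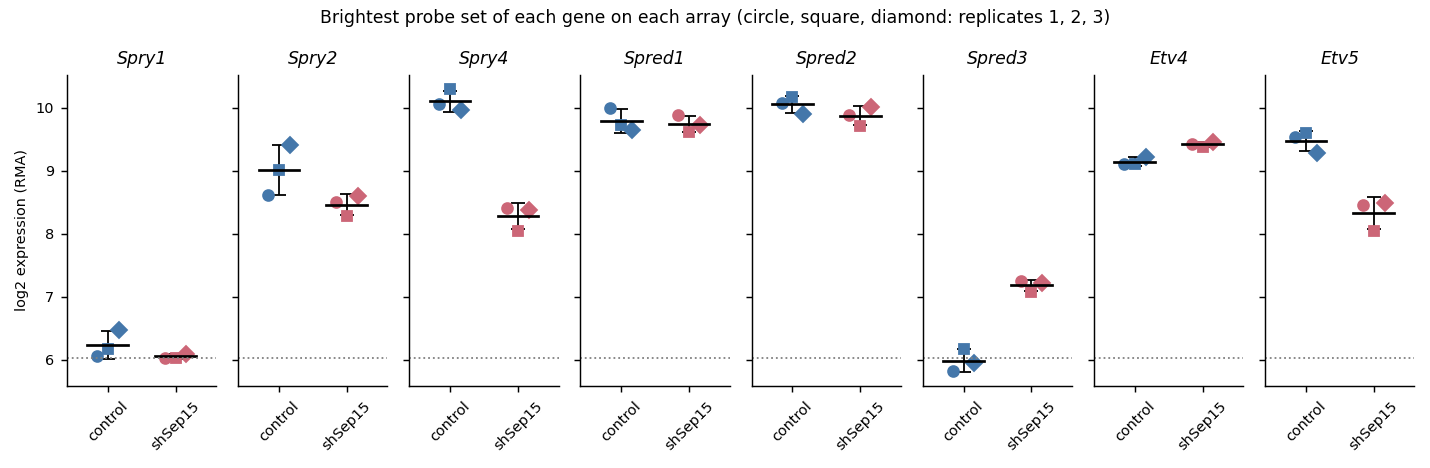
Log2 expression (vertical axis) of the brightest probe set of each of the 8 genes on the 3 control (blue) and 3 shSep15 (red) arrays, with the mean (line) and SD (bar); the dotted line is the background level of 6.02. The groups lie far apart for Spry4, Spred3 and Etv5, narrowly apart for Spry2 and Etv4, and overlap for Spry1, Spred1 and Spred2.

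Among the Sprouty genes Spry4 changed most. Spry4, a feedback inhibitor of receptor tyrosine kinase signalling, read 10.05, 10.30 and 9.96 on control arrays 1 to 3 and 8.41, 8.04 and 8.38 on shSep15 arrays 1 to 3. The 2 groups were separated by 1.55. The mean fell from 10.10 ± 0.17 to 8.28 ± 0.20 (SD, n = 3 each), a difference of −1.83 (SE 0.14, limma adjusted p = 2.75e-05). The remaining 3 probe sets of the gene fell too, with differences of −1.52, −1.64 and −1.75, so that all 4 gave a fall of about the same size. In shSep15 cells the dimmest of them was below background (5.85), so its fall may be understated.

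Spry2, which binds Grb2 and the ubiquitin ligase Cbl, read 8.62, 9.01 and 9.40 on the control arrays and 8.50, 8.28 and 8.60 on the shSep15 arrays. The groups came within 0.011 of each other, and the control arrays were spread more widely than the knockdown arrays (SD 0.39 and 0.17). The difference of −0.55 (SE 0.19, 95% interval −0.98 to −0.12) missed the threshold at limma adjusted p = 0.0784. Without control 1, the lowest control array, it was −0.75 and passed (limma adjusted p = 0.0167), without control 3, the highest, it was −0.35 (0.209), and with only probe sets above background it passed at 0.0433. The other Spry2 probe set was under the background level and differed by −0.07. Spry1, the third Sprouty gene, was close to background, at 6.05, 6.16 and 6.47 in control cells and 6.03, 6.03 and 6.09 in shSep15 cells. Its groups overlapped, and the difference of −0.18 had an interval from −0.47 to 0.12 (limma adjusted p = 0.440).

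Of the SPRED genes 1 was called. Spred1 and Spred2, which hold neurofibromin at the membrane, were well above background and differed little. Spred1 read 10.00, 9.72 and 9.65 against 9.88, 9.62 and 9.72, a difference of −0.05 whose interval of −0.32 to 0.21 leaves room for small shifts only. Its 8 probe sets, 6 of them above background, gave differences from −0.26 to 0.18, and none was called. Spred2 read 10.08, 10.17 and 9.90 against 9.89, 9.70 and 10.01, a difference of −0.19 (interval −0.44 to 0.06, limma adjusted p = 0.322). Its 5 probe sets ran from −0.19 to 0.10 with none called, and the groups of both genes overlapped.

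Spred3, the family member known for lacking a functional KIT-binding domain, rose. It read 5.82, 6.17 and 5.95 in control cells and 7.25, 7.08 and 7.22 in shSep15 cells. Every knockdown array lay above every control array, by at least 0.913. The difference was 1.20 (SE 0.13, limma adjusted p = 0.000190). The control mean of 5.98 was just under the background level, so the size of the rise is not exact, and the array holds no further probe set of the gene to compare it with.

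Of the PEA3 factors Etv5 fell. It read 9.54, 9.59 and 9.28 on control arrays and 8.45, 8.04 and 8.49 on shSep15 arrays. The groups were separated by 0.795, and the mean fell by 1.14 (SE 0.15, limma adjusted p = 0.000564). The gene's 2 further probe sets fell by 1.18 and 1.05 (limma adjusted p = 0.00195 and 0.000630).

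Etv4 did not pass the test. It read 9.11, 9.10 and 9.22 in control cells and 9.42, 9.38 and 9.46 in shSep15 cells, so each knockdown array lay above the control arrays by a margin of at least 0.166. The difference of 0.28 (SE 0.09, interval 0.07 to 0.49) was not past the threshold (limma adjusted p = 0.0669). It passed when the 2 probe sets of the gene were averaged (0.39, limma adjusted p = 0.00669), without the intensity trend (0.0448) and with only probe sets above background (0.0372). The dimmer Etv4 probe set alone rose by 0.50 (limma adjusted p = 0.0142), from 5.58 to 6.09, around the background level. By probe set, the 26 gave 7 calls lower (9.66% of all probe sets), all of Spry4 and Etv5, and 2 calls higher (9.71%). Of the 26, 22 were above background, against 47.4% of all probe sets, so these shares are not like for like.

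**Figure D2:**
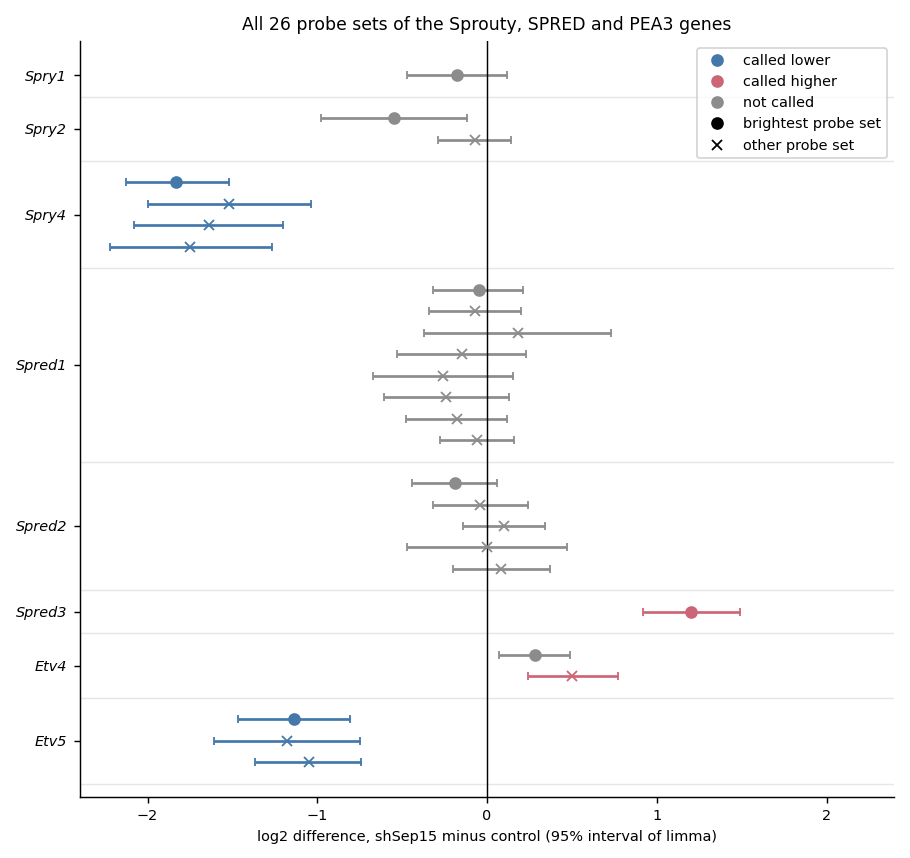
Log2 difference of shSep15 minus control (horizontal axis) with its 95% interval from limma for the 26 probe sets, grouped by gene. The 4 Spry4 and 3 Etv5 probe sets lie at −1.83 to −1.05, while the 8 Spred1 and 5 Spred2 probe sets lie around 0.

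Differences between family members were tested within arrays, by subtracting 1 gene from the other on each array and regrouping the 6 arrays in all 20 ways. The difference of Etv5 minus that of Etv4 was −1.42 (SE 0.18). It was −1.28 (SE 0.27) for Spry4 minus Spry2 and −1.65 (SE 0.23) for Spry4 minus Spry1. Spry1 was close to background in control cells (6.23), so it had little room to fall in its pairs. Spred3 stood above Spred2 by 1.39 (SE 0.11) and above Spred1 by 1.26 (SE 0.19) in its difference. Each of these 5 pairs, and Spry2 against Spry1 (−0.37, SE 0.14), reached exact permutation p = 0.1, two-sided, the smallest that 3 against 3 arrays allow, so no pair could pass 0.05. For Spred1 against Spred2 the value was 0.13 (SE 0.13, exact permutation p = 0.5). Adjusted over the 7 pairs, the permutation p was 0.117 for the former 6 and 0.5 for the last.

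Within each group, Spry4 and Etv5 kept a like order of arrays. Control 2 was the highest and control 3 the lowest control array on all 7 of their probe sets. Among shSep15 arrays, shSep15 2 was the lowest on 6 of the 7 and shSep15 3 the highest on 6. For Spry2, by contrast, control 3 was the highest control array. Probe sets of 1 gene share their RNA and array. Over all 22 probe sets of the genes above background, these 7 included, control 3 was the lowest control array on 15 and control 2 the highest on 11. On the same 22, shSep15 2 was the lowest knockdown array on 17 and shSep15 3 the highest on 12.

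Spry4 lies on chromosome 18, where many genes were lower in shSep15 cells. Of the 259 other genes above background on that chromosome, 119 were called lower (45.9%) and 15 higher (5.79%), with a median of −0.30, against 19.8% and 19.3% of all 10870 genes above background. Spry4 stood 1.52 below that median, and 7 of the 259 had a lower difference. Of its 10 nearest neighbours above background, 5 on each side, 6 were called lower and 1 higher (median −0.48). The part of the chromosome-wide shift in the fall of Spry4 was not tested.

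Etv5 and Spred3 lie on chromosomes without such a shift. On chromosome 16 the median of 340 other genes was 0.00, 12 of them had a lower difference than Etv5, and of its 10 neighbours 1 was called lower and 0 higher. On chromosome 7, 810 of 817 other genes had a lower difference than Spred3, around a median of 0.00, and its neighbours gave 3 calls higher and 1 lower. Spred3 itself lay above background only through its shSep15 arrays. Spry1, on chromosome 3, stood 0.44 below a median of 0.26 over 537 genes, 229 of which (42.6%) were called higher.

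**Figure D3:**
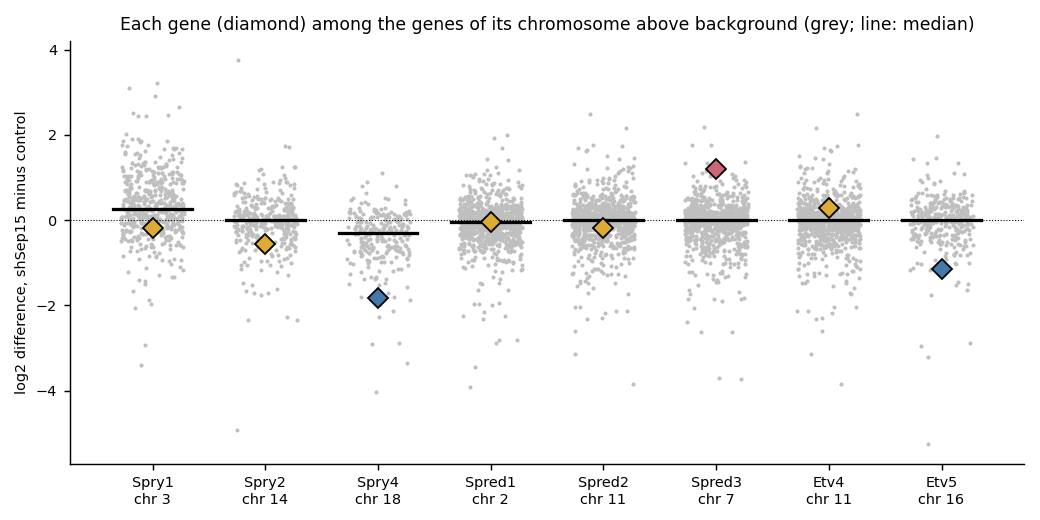
Log2 difference of shSep15 minus control (vertical axis) of each gene (diamond; blue called lower, red called higher, yellow not called) among the other genes of its chromosome above background (grey points, with their median as a line). The chromosome 18 median is −0.30 and the chromosome 3 median 0.26, and Spry4, Etv5 and Spred3 lie far from the median of their chromosome.

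Among 15 other genes that ERK signalling switches on, 7 were called lower, 2 higher and 6 neither way, with a median of −0.31. All 9 calls were among the 13 above background, where 19.8% of all genes were called lower and 19.3% higher. Leaving out control 1, control 2, shSep15 2 or shSep15 3 gave 6 lower calls. Egr1, a zinc finger factor, had a difference of −2.28 (SE 0.32, limma adjusted p = 0.000899). The phosphatase Dusp4, which inactivates ERK in the nucleus, fell by 1.52 (SE 0.12), its relative Dusp5 by 1.23 (SE 0.19) and the AP-1 subunit Fos by 1.15 (SE 0.18). The 2 higher genes, picked once values were known, were Phlda1 (0.72) and the cyclin Ccnd1 (0.42). Of the 2 other Ccnd1 probe sets above background, 1 was called higher. Dusp6, the cytoplasmic ERK phosphatase and a common marker of the pathway, was also picked once values were known. It read 11.10, 11.46 and 10.90 in control and 10.91, 10.70 and 11.17 in shSep15 cells, with overlapping groups and a difference of −0.22 (SE 0.15, limma adjusted p = 0.414). The urokinase receptor Plaur, also picked once values were known, fell by 0.53 (limma adjusted p = 0.0275), a call that ended on leaving out any 1 of those 4 arrays (0.0996 to 0.119). Myc (−1.03, limma adjusted p = 0.000854) and Fosl1 (−0.83, 0.000234), also picked once values were known, were the remaining lower calls. Both calls held under all 13 alternatives. Egr1, like Spry4, lies on chromosome 18.

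Of 21 upstream receptors and ligands, 4 fell and 2 rose, with a median of 0.00. All 6 were among the 15 above background, against 19.8% lower and 19.3% higher over all such genes. The receptor Pdgfrb, on chromosome 18, fell by 3.36 to a level under background, Fgfr1 by 0.94 and the EGF receptor ligand Ereg by 0.81 (limma adjusted p = 4.38e-05, 0.00163 and 0.00113), while Pdgfra rose by 1.35 (4.45e-05). Of the 2 other Fgfr1 probe sets above background 1 was called the same way, and the 1 other of Pdgfra was not. With the probe sets of the gene averaged, the difference of Pdgfra was 0.54. The ligand Hbegf (−0.57) and the receptor Igf1r (0.39), picked once values were known, were the remaining calls. The 1 other Hbegf probe set above background was not called lower, and none of the 4 others of Igf1r was called higher. Leaving out control 1, control 2, shSep15 2 or shSep15 3 ended the call of Hbegf (limma adjusted p 0.0680 to 0.0806). That of Igf1r ended on leaving out any array but control 1 (0.0637 to 0.129), and with arrays shifted to the same median (0.0522).

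The cascade itself was followed at the RNA level. Of 21 adaptors, RAS, RAF, MEK and ERK genes, 14 had a value, of which 1 rose and 1 fell (median −0.01). Both were among the 13 above background, where 19.8% of all genes were called lower and 19.3% higher. Nras rose by 0.61 (SE 0.08, limma adjusted p = 0.000492), and its 2 other probe sets rose too (1.02 with probe sets averaged). Nras lies on chromosome 3, whose median was 0.26. Araf fell by 0.69 (SE 0.10, limma adjusted p = 0.00118), but its 1 further probe set above background was not called lower, and averaging its probe sets gave −0.21 (limma adjusted p = 0.0934). Among 16 partners of Sprouty and SPRED proteins and other RAS brakes, 3 rose and 3 fell (median −0.11). All of these calls were among the 14 above background, to be set against the same shares of all genes. Caveolin Cav1 rose by 0.45 (limma adjusted p = 0.000649). The RAS GTPase-activating proteins Rasal2 and Rasa2 fell by 0.67 and 0.52, and the ubiquitin ligase Siah1a by 0.53. Neither of the 2 further Siah1a probe sets above background was called lower. Neurofibromin, Nf1, the partner of SPRED proteins, did not pass (−0.34, limma adjusted p = 0.0954). Pebp1 (0.25) and Lgals1 (0.10), picked once values were known, were the other 2 rises. For each of these, the 1 further probe set above background was not called higher. The calls of Pebp1 and Lgals1 ended on leaving out any array but control 2 (limma adjusted p 0.0532 to 0.0979 and 0.0729 to 0.123). Quantile normalization (0.0549 and 0.621) and the fit without the trend (0.117 and 0.477) ended both too. That of Rasa2 ended on leaving out control 1, control 2, shSep15 2 or shSep15 3 (0.0833 to 0.104). Without shSep15 3, the array with high interferon-stimulated genes, 7 genes of all 6 lists were called higher, against 12 with it. Leaving out any other array also gave fewer than 12, though none gave fewer than 7. The part of shSep15 3 in the drop was not tested.

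Among 9 regulators of PEA3 factors, 2 fell and 2 rose (median −0.13). All 9 were above background, where 19.8% of all genes were called lower and 19.3% higher. Cop1, the ubiquitin ligase that marks PEA3 proteins for degradation, fell by 0.85 (SE 0.08, limma adjusted p = 0.000134), and the deubiquitinase Usp9x fell by 0.93 on its brightest and on all 5 other probe sets above background. Ddb1, a subunit of the ligase complex, rose by 0.31 (limma adjusted p = 0.00846). The ETS repressor Erf was higher by 0.35 at limma adjusted p = 0.0459, a call that ended whichever array was left out (0.0552 to 0.132), with the mean of probe sets (0.128) and with both other scalings (0.0530 and 0.0572). The repressor Cic did not pass (0.13, limma adjusted p = 0.486). Of 17 other ETS factors, 4 fell and 2 rose (median −0.01), all of them among the 13 above background, with the same shares over all genes. Ets2 fell by 1.49 (SE 0.08, limma adjusted p = 5.81e-06) and Elk1 by 0.89 (SE 0.11), while Elk3 rose by 0.73 (SE 0.10). With probe sets averaged, Ets2 differed by −0.86 and Elk1 by −0.47. Elf4 (−0.47) and, picked once values were known, Elk4 (−0.44) and Etv6 (0.39) completed the calls. None of the other probe sets of Elf4, Elk4 and Etv6 above background was called the same way. Leaving out control 2, control 3, shSep15 1 or shSep15 3 ended the call of Elf4 (limma adjusted p 0.0530 to 0.0868), as did quantile normalization (0.0508). That of Elk4 ended without shSep15 1 (0.0530) and with the mean of probe sets (−0.21, limma adjusted p = 0.102). That of Etv6 ended on leaving out any array but control 3 (0.0591 to 0.0696) and with the mean of probe sets (0.0718). Over the 6 lists, 21 of 92 genes were lower and 12 higher, against 12.8% and 12.2% of all genes. All 33 were among the 77 list genes above background, where the shares over all genes were 19.8% and 19.3%, and 3 of the 21 lie on chromosome 18.

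**Figure D4:**
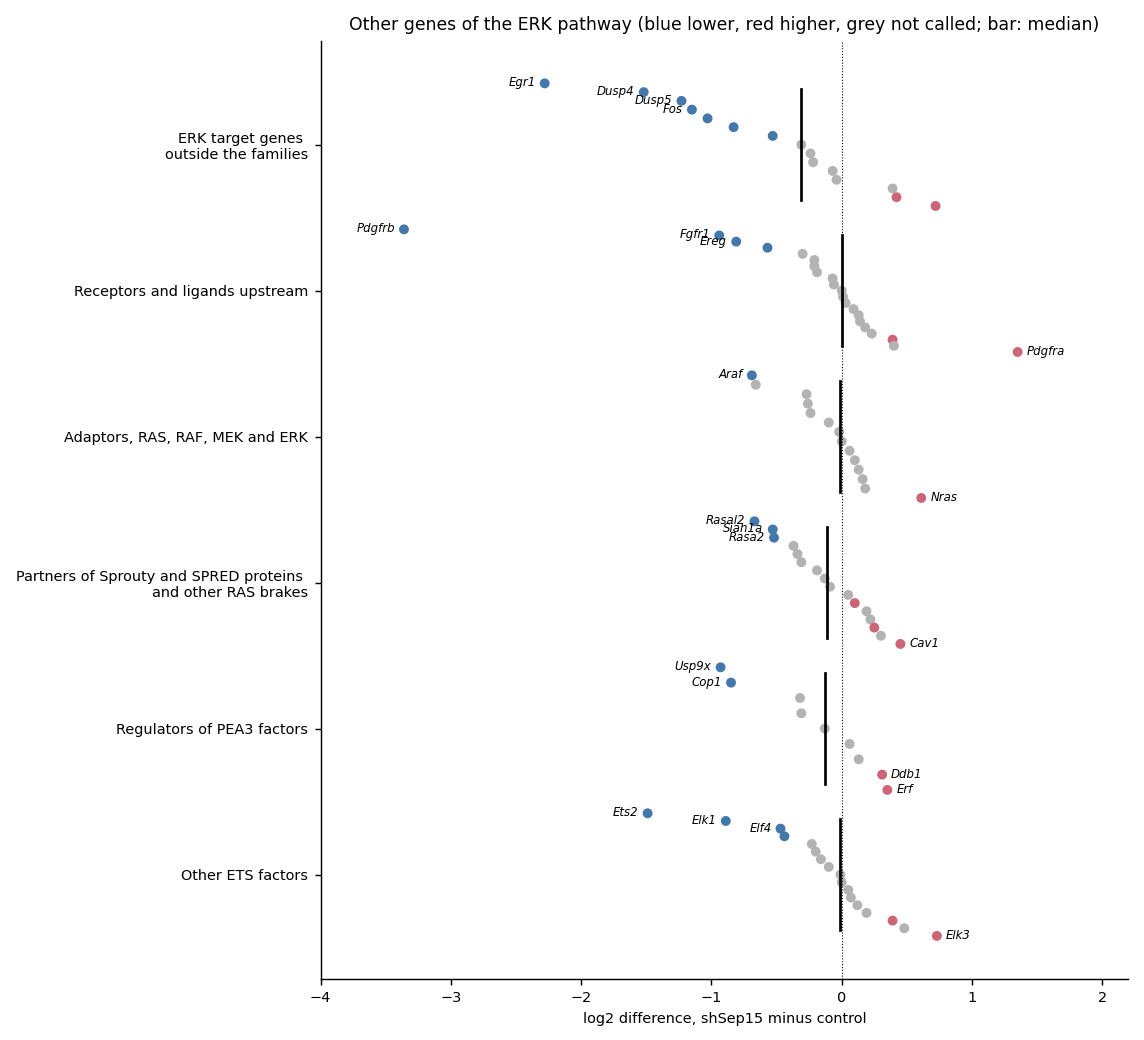
Log2 difference of shSep15 minus control (horizontal axis) of each gene of the 6 lists, ordered within a list, with the list median as a bar; labels mark the up to 4 genes of each list with the largest called differences. ERK target genes have the lowest median, −0.31, and those of the other lists lie between −0.13 and 0.00.

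The genes closest in pattern to Spry4, Spred3 and Etv5 were sought among 10869 other genes above background, by the distance between the 6 array values after subtracting each gene's control mean. For Spry4 these were Socs2, a feedback inhibitor of cytokine receptors (distance 0.19, log2 difference −1.85), Tshz1, also on chromosome 18 (0.27, −1.79), and 2010204K13Rik (0.30, −1.81). For Etv5 they were the kinase Cdk16 (0.08, −1.10), Car13 (0.18, −1.10) and Trem3 (0.20, −1.14). For Spred3 they were the replication factor subunit Rfc3 (0.11, 1.25), Igfbp6 (0.13, 1.19) and Dpy30 (0.15, 1.23). Because the group difference makes up most of each profile, this measure finds genes with a difference of like size.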

How the data were processed

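RNA of 6 CT26 samples, 3 per group, was extracted with TRIzol, biotin-labelled and hybridised to Affymetrix Mouse430_2 arrays, as the labels' protocols state. The values deposited are on the log2 scale, with 1 value for each probe set of an array, and come from RMA (background correction, normalization between arrays and summary over probes), per the submitters' processing notes; its version is not given in the sources used here. Values were used as deposited. The number of arrays, 3 per group, limits the precision. Of 45101 probe sets, 64 array controls were left out. Genes were named from probe sets with 1 symbol (34945; 932 had several and 9160 none), updated through RefSeq (34741 found), and each gene stands by its brightest probe set. Array values have no detection call; the background level is the value that 95% of 78 receptor probe sets stayed under on average over arrays, and RMA shrinks differences of dim probe sets.

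The fit over all probe sets used limma 3.58.1 (lmFit, eBayes with intensity trend; R 4.3.3), group as the only term, two-sided, Benjamini-Hochberg adjustment over 45037 probe sets, threshold 0.05; the procedure was tested on simulated data. Log2 differences are shSep15 minus control. The genes and lists were chosen with earlier results of these data known, so the lists are context and not independent support. The text names all 8 measured genes, up to 4 called genes of each list with the largest differences, and the 3 genes nearest in pattern to the most changed called gene of each family; others are marked as picked once values were known. The interferon genes were also chosen with results known. Alternatives were the mean of probe sets, other scalings and variance settings, a background filter, the replicate number as a block and each array left out.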

Additional observations from a re-analysis of the deposited data

How the results depend on the processing

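Spry4, Etv5 and Spred3 kept their direction and call under all 13 alternatives, with log2 differences of −1.90 to −1.68, −1.23 to −1.0 and 1.13 to 1.30. Of the 104 values of the 8 genes, 98 stayed on the same side of the threshold and 6 passed it: Etv4 with the mean of probe sets (0.39), without the trend (0.28) and with the background filter (0.28), and Spry2 with the background filter (−0.55), with the replicate block (−0.55) and without control replicate 1 (−0.75; −0.75 to −0.35 over arrays left out). So 2 of the 8 genes were called higher with the mean of probe sets, without the trend and with the background filter, against 1. With the replicate block, the background filter or control 1 left out, 3 were called lower against 2. The correlation of deviations from the group mean was 0.399, −0.201 and −0.0552 for arrays of the same number, so the numbers were not taken to pair samples.

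Of the list counts, cascade genes called lower were 2 with quantile normalization or the replicate block and 3 with the background filter, against 1. RAS brakes called lower were 5 with the mean of probe sets, without the trend or with the background filter, against 3. Higher calls were 1 against 2 for receptors and ligands with arrays shifted to the same median, for other ETS factors with the mean of probe sets, and for regulators of PEA3 factors with the mean of probe sets, shifted medians, quantile normalization or the replicate block. With 1 array left out, cascade genes gave 1 to 2 lower calls, other ETS factors 1 to 2 higher and 2 to 4 lower, RAS brakes 1 to 3 higher, receptors and ligands 1 to 2 higher, regulators 1 to 2 higher, and all lists 7 to 10 higher. Of 33 called list genes, 11 lost the call in at least 1 alternative and none reversed. Signal near background limits Spry1 and the control level of Spred3.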
